A study of Homo sapiens with 4 samples.

Results

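The genes described here are 10 core genes of the RNA interference and microRNA machinery, AGO1, AGO2, AGO3, AGO4, DICER1, DROSHA, DGCR8, XPO5, TARBP2 and TNRC6A. They were picked by gene symbol from the 27940 gene symbols of 4 RNA-seq libraries of U87, an established human glioma cell line. No measured value enters the rule, but the choice was made with earlier results of these data known. The shPTPRN3 group (2 libraries) carried a lentivirus with a hairpin directed at PTPRN, a phosphatase-family membrane protein of dense-core vesicles. The shNC group (2 libraries) carried a lentivirus made from the empty FUGW-H1 vector, and no group of uninfected cells was analysed here. The series' design text calls the control H1-RFP (WT), so the exact control vector is uncertain. Neither source says that the control vector expresses a hairpin. The comparison thus asks whether the messenger RNAs of the pathway that must process the hairpin differ when the hairpin is present. The shPTPRN3 libraries also had less PTPRN RNA, so the presence of the hairpin and the lower PTPRN level cannot be told apart. Replicates are called biological in the design text with no word on separate cultures, so the tests measure spread among 4 libraries and part of it may be technical.

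MicroRNAs are cut from long primary transcripts in the nucleus by the Microprocessor, in which the ribonuclease DROSHA works with the RNA-binding protein DGCR8. The resulting hairpins leave the nucleus on Exportin-5, the product of XPO5, and are cut again by DICER1 with its partner TARBP2. The duplex is loaded onto an Argonaute protein, which keeps one strand as guide, and TNRC6A, a GW182 protein, links the loaded Argonaute to deadenylation and decapping. A short hairpin RNA transcribed from an H1 promoter enters at the export step, bypasses the Microprocessor and uses the same Exportin-5, Dicer and Argonaute proteins. Messenger RNA libraries of this kind report the levels of the transcripts that encode these proteins and do not measure small RNAs, strand loading or protein.

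The hairpin's target sequence is shown with its antisense strand because it is the molecule that the pathway had to process. Capitals mark bases 2 to 8 of the antisense strand, the seed if that strand is loaded as guide, and the bases of the target that pair with them.
Hairpin target in PTPRN: ggaagtctgtattCAGGATGg
Antisense strand: cCATCCTGaatacagacttcc
Among 2545 mature human microRNAs listed by RefSeq (GRCh38.p14), 1 has the same bases 2 to 8, hsa-miR-4793-5p, whose capitals mark that seed.
hsa-miR-4793-5p: aCAUCCUGcuccacagggcagagg

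PTPRN, the targeted gene, stood at 5.22 and 3.42 FPKM in the shPTPRN3 libraries and at 28.6 and 19.3 FPKM in the shNC libraries. FPKM are fragments counted per length of transcript and per number of fragments mapped in the library. After scaling, 18.1% of the shNC level was left, with a log2 fold change of -2.22 (SE 0.34, adjusted p = 0.0594 by limma). The exact permutation test gave p = 0.333, two-sided, the smallest that 2 against 2 libraries allow. Each library held an estimated 14400000 to 32400000 fragments, judged from the deposited intervals of single-exon genes. The labelled cell line expressed VIM, CD44 and TIMP1, at 84.6 scaled FPKM or more in every library, while NES was at 1.30 and 0.972 scaled FPKM in shPTPRN3 and 2.35 and 4.01 in shNC. Glial and neural markers were low, with GFAP listed at 0 throughout and a sum over 6 markers of 1.92 and 1.14 FPKM in the shPTPRN3 libraries and 1.74 and 1.82 FPKM in the shNC libraries. Of 6 markers of other cell types, the lysosomal gene CD68 was abundant at 434 and 326 scaled FPKM in shPTPRN3 and 225 and 253 in shNC. The other 5, PTPRC, PECAM1, CDH5, EPCAM and ALB, stayed under 1 FPKM, and the part of CD68 in any value below was not tested.

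None of the machinery genes changed by the test used. limma, run on log2(scaled FPKM + 1) over 11394 genes that averaged 1 FPKM or more, tested 9 of the 10 members and called 0 of them at an adjusted p under 0.05. It called 0.421% of all genes tested, 0.079% as higher and 0.342% as lower in shPTPRN3. No member had an unadjusted p under 0.05, against 13.5% of all genes tested. The other settings tried without a replicate block also called 0 members, and 1 was called with the block. Of the 9 tested members, 6 had a log2 fold change above 0 and 3 below. The median over those 9 was 0.16, and it was 0.13 when AGO3, which did not reach the minimum of 1 FPKM, was added by leaving out the filter. The median over all genes tested was -0.01. These values do not show that the levels were alike in both groups, since the 95% intervals given below reach past 1 or -1 on the log2 scale for 8 of the 9. In bulk RNA, less RNA per cell and fewer cells that express a gene cannot be told apart.

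By mean level, in FPKM as deposited and so per transcript length, TARBP2 and TNRC6A led the members in both groups. In shPTPRN3 (mean ± SD, n = 2) TARBP2 stood at 18.2 ± 3.36 and TNRC6A at 13.8 ± 4.93, and their library values overlapped. DGCR8 followed at 6.55 ± 1.18 and DROSHA at 6.09 ± 0.33, also overlapping. AGO2 at 4.52 ± 0.56, AGO1 at 4.33 ± 0.45 and XPO5 at 3.84 ± 1.11 overlapped each other, and XPO5 also overlapped DICER1 at 3.56 ± 0.15 and AGO4 at 3.13 ± 0.47. AGO3 was last at 0.771 ± 0.076 and apart from the rest. In shNC (mean ± SD, n = 2) TARBP2 stood at 25.01 ± 10.3, above TNRC6A at 10.2 ± 4.21 and DROSHA at 7.63 ± 3.23, whose values overlapped. XPO5 at 4.07 ± 0.54, AGO1 at 4.04 ± 2.27, DICER1 at 3.47 ± 1.87, AGO2 at 3.07 ± 0.88 and AGO4 at 1.83 ± 0.80 followed, each overlapping AGO1 or DICER1, and AGO3 at 1.04 ± 0.349 was last, overlapping AGO4. DGCR8, with 1 library listed at 0, was given no shNC mean.

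**Figure D1:**
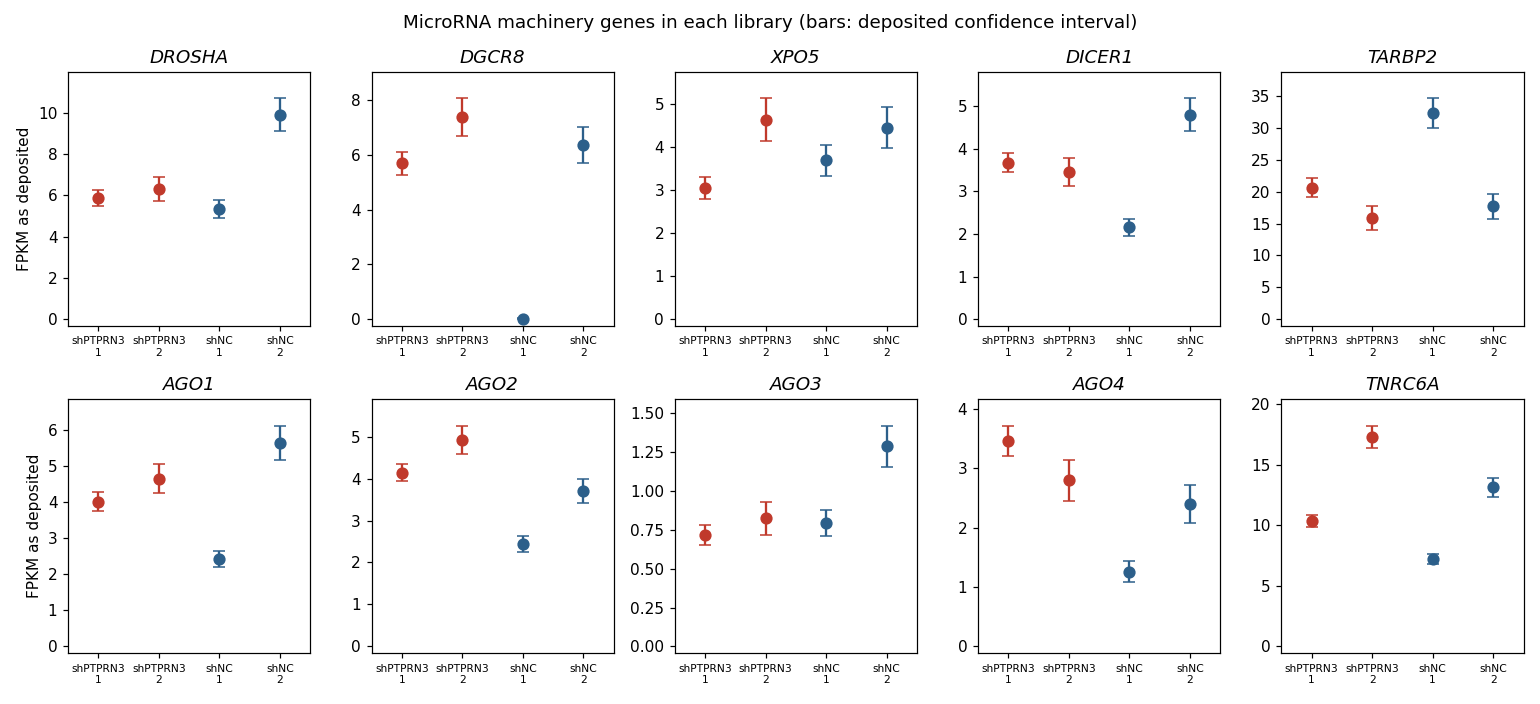
FPKM as deposited for each of the 10 machinery genes (y axes, each from 0) in the 2 shPTPRN3 libraries (red) and the 2 shNC libraries (blue), with bars for the deposited within-library confidence interval. Both red points lie above both blue points for AGO2 and AGO4, the groups overlap for the other 8 genes, and DGCR8 is listed at 0 in shNC replicate 1.

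At the nuclear step, DROSHA, the ribonuclease of the Microprocessor, had 5.86 and 6.32 FPKM in shPTPRN3 replicates 1 and 2, against 5.35 and 9.91 FPKM in shNC replicates 1 and 2. The shPTPRN3 libraries lay between the shNC libraries. Its log2 fold change was -0.22 (95% interval -1.12 to 0.68, adjusted p = 0.854 by limma). The gene lies on the minus strand of chromosome 5, from 31400495 to 31532093 (hg38), and no other row of the tables overlaps it.

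DGCR8, the RNA-binding subunit of the Microprocessor, had 5.71 and 7.38 FPKM in the shPTPRN3 libraries, was listed at 0 in shNC replicate 1 and had 6.38 FPKM in shNC replicate 2. The 3 nonzero libraries lie close together, with shNC replicate 2 between the shPTPRN3 libraries, and the listed 0 stands apart with a deposited interval of 0 to 0.0259 FPKM. A value of exactly 0 in these tables can be a failed estimate, and whether this one is was not tested. The log2 fold change of 1.46, the largest among the members, had a 95% interval of -0.54 to 3.46 (adjusted p = 0.486 by limma) and was -0.0023 without shNC replicate 1. DGCR8 lies on chromosome 22 from 20080232 to 20111877 on the plus strand, and its end overlaps TRMT2A, a tRNA methyltransferase gene, by its last bases. TRMT2A had 20.6 and 40.9 FPKM in shPTPRN3 and 21.3 and 17.5 FPKM in shNC. DGCR8 summed with its overlapping rows had a log2 fold change of 0.65 (adjusted p = 0.536 by limma). TRMT2A was above DGCR8 in every library, so that sum is mostly TRMT2A and says little about DGCR8.

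XPO5, which encodes the export receptor for precursor hairpins, had 3.05 and 4.63 FPKM in the shPTPRN3 libraries and 3.69 and 4.45 FPKM in the shNC libraries. Both shNC values lay inside the range of the shPTPRN3 values. On the log2 scale the fold change was -0.07, the smallest in size among the members, with a 95% interval of -0.88 to 0.74 (adjusted p = 0.963 by limma). On the linear scale of FPKM + 1 that interval runs from 0.543-fold to 1.67-fold. XPO5 lies on the minus strand of chromosome 6, from 43522330 to 43576075. Its row overlaps that of POLR1C, a subunit of RNA polymerases I and III, which had 8.69 and 6.48 FPKM in shPTPRN3 and 16.4 and 9.24 FPKM in shNC. With the strand setting of the counting not given, reads in the overlap cannot be assigned with certainty, and the 2 rows summed gave a log2 fold change of -0.49 (adjusted p = 0.547 by limma).

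DICER1, the ribonuclease that cuts the precursor into a duplex, had 3.66 and 3.45 FPKM in shPTPRN3 and 2.15 and 4.79 FPKM in shNC. The shPTPRN3 libraries had a ratio of 0.944 to each other (replicate 2 over replicate 1), while the shNC libraries had a ratio of 2.23. DICER1 had a log2 fold change of 0.10 (95% interval -0.82 to 1.01, adjusted p = 0.948 by limma). DICER1 lies on the minus strand of chromosome 14, from 95086228 to 95158010.

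TARBP2, the double-stranded RNA-binding partner of Dicer, was the most abundant of the 10 genes in every library except shPTPRN3 replicate 2, where TNRC6A exceeded it. It had 20.6 and 15.8 FPKM in shPTPRN3 and 32.3 and 17.7 FPKM in shNC, with shNC replicate 1 well above the other 3 libraries. Its log2 fold change was -0.38 (95% interval -1.25 to 0.50, adjusted p = 0.72 by limma), and without shNC replicate 1 it was -0.0045. TARBP2 lies on chromosome 12 from 53500921 to 53506431 on the plus strand and has the shortest transcript of the group, 1867 bases in GENCODE 29.

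PRKRA, which encodes the other double-stranded RNA-binding partner of Dicer, had 13.0 and 8.34 FPKM in shPTPRN3 and 14.8 and 11.99 FPKM in shNC. Its log2 fold change was -0.32 (adjusted p = 0.734 by limma).

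The 4 Argonaute genes encode the proteins that hold the guide strand, and AGO2 is the family member known for slicing a fully paired target. AGO2 had 4.12 and 4.92 FPKM in the shPTPRN3 libraries and 2.45 and 3.69 FPKM in the shNC libraries. Both shPTPRN3 values lay above both shNC values. The log2 fold change was 0.46 (95% interval -0.33 to 1.26, adjusted p = 0.593 by limma). AGO4 had 3.46 and 2.80 FPKM in shPTPRN3 and 1.26 and 2.40 FPKM in shNC, again with no overlap. Its log2 fold change was 0.58 (95% interval -0.22 to 1.37, adjusted p = 0.491 by limma). Without shNC replicate 1 the value was 0.21 for AGO2 and 0.25 for AGO4, and without shNC replicate 2 it was 0.72 for AGO2 and 0.90 for AGO4. AGO2 and AGO4 were the only members whose groups did not overlap, 2 of the 9 tested, with the shPTPRN3 libraries higher. Over all genes tested 44.6% had groups that did not overlap, 21.5% with the shPTPRN3 libraries higher and 23.1% with them lower. The members' 2 of 9 is close to the share of all genes that were higher.

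AGO1 had 4.01 and 4.65 FPKM in shPTPRN3, between 2.43 and 5.65 FPKM in shNC, with a log2 fold change of 0.16 (95% interval -0.81 to 1.13, adjusted p = 0.912 by limma). AGO3 was the lowest of the 10 genes in the shPTPRN3 libraries and in shNC replicate 2, with 0.717 and 0.825 FPKM in shPTPRN3 and 0.792 and 1.29 FPKM in shNC. With no filter on low values its log2 fold change was -0.19 (adjusted p = 0.803 by limma). AGO4, AGO1 and AGO3 lie in that order on the plus strand of chromosome 1, between 35807636 and 36072499, with 11918 bases between AGO4 and AGO1 and 573 between AGO1 and AGO3. AGO2 lies apart, on the minus strand of chromosome 8 (140520156 to 140635633).

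Summed over the 4 genes, Argonaute FPKM were 12.3 and 13.2 in shPTPRN3 and 6.93 and 13.0 in shNC, a mean of 12.8 ± 0.62 against 9.98 ± 4.31 (SD, n = 2 each). The sum was low in shNC replicate 1 and nearly equal in the other 3 libraries. AGO2 made up 33.5% and 37.3% of the sum in shPTPRN3 and 35.3% and 28.3% in shNC, so the ranges overlapped. AGO4 made up 28.1% and 21.2% in shPTPRN3 and 18.2% and 18.4% in shNC, and AGO3 5.82% and 6.25% in shPTPRN3 and 11.4% and 9.87% in shNC. AGO1 made up 32.6% and 35.2% in shPTPRN3 and 35.1% and 43.4% in shNC, again with overlap. For AGO4 and AGO3 the shares of the 2 groups did not overlap, a description of 2 libraries a group with no test. The shares are parts of the same sum, so a higher share of any gene lowers the rest.

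TNRC6A, the GW182 scaffold that recruits deadenylases to a loaded Argonaute, had 10.3 and 17.3 FPKM in shPTPRN3 and 7.19 and 13.1 FPKM in shNC. The values alternated between groups, and replicate 2 was the higher library in each group. The log2 fold change was 0.43 (95% interval -0.61 to 1.48, adjusted p = 0.728 by limma), and it was -0.0025 without shNC replicate 1. Its paralogues were lower in level. TNRC6B had 1.58 and 2.76 FPKM in shPTPRN3 and 0.951 and 2.32 FPKM in shNC, and TNRC6C stayed under 1 FPKM in every library. TNRC6A held 83.8% and 84.2% of the summed GW182 FPKM in shPTPRN3 and 83.1% and 81.5% in shNC. TNRC6A thus made up most of the sum in each library, while the sum itself was 12.3 and 20.6 FPKM in shPTPRN3 and 8.66 and 16.1 FPKM in shNC.

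**Figure D2:**
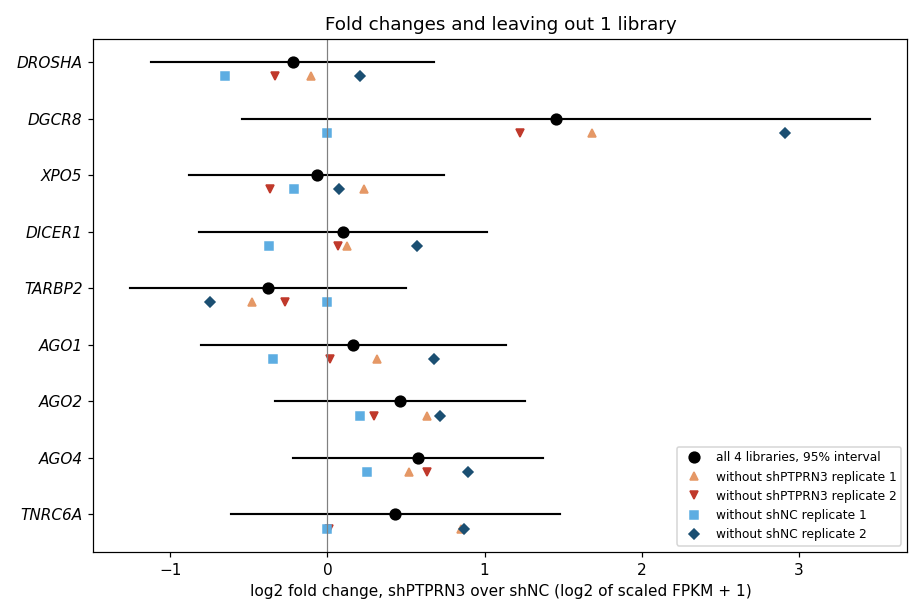
Log2 fold change of shPTPRN3 over shNC on log2(scaled FPKM + 1) (x axis) for the 9 members tested; black points and lines give the fit to all 4 libraries with its 95% interval, and small symbols the fit without 1 library. Every interval spans 0, and the values without shNC replicate 1 and without shNC replicate 2 are the furthest apart for 8 of the 9 genes.

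The shNC replicates differed from each other more than the group means did for most members. The deposited intervals of the 2 shNC libraries did not overlap for 9 of the 10 genes, XPO5 being the exception, and those of the 2 shPTPRN3 libraries did not overlap for 6. Counting error was small beside this, since the intervals, read as 2 SDs of a Poisson count, correspond to between 197 and 1736 fragments per gene and library where the gene was not listed at 0. In 7 of the 10 genes shNC replicate 1 was the lowest of the 4 scaled libraries, and in none was shNC replicate 2 the lowest. AGO1 had a ratio of 2.32 between the shNC libraries (replicate 2 over replicate 1), DROSHA 1.85, AGO4 1.90 and TNRC6A 1.83. TARBP2, at 0.549, was the only member lower in shNC replicate 2 than in replicate 1.

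Transcript length moved with these library differences. GENCODE 29 gives 9 of the 10 members a transcript of at least 4000 bases, TARBP2 being the exception. Of the 4276 tested genes with transcripts that long, 53.9% had their lowest value in shNC replicate 1 and 7.74% in shNC replicate 2, against 29.7% and 23.0% of all genes tested. The trend followed the replicate number in both groups. For that class the median deviation in replicates 1 and 2 was -0.07 and 0.14 in shPTPRN3 and -0.26 and 0.18 in shNC. For transcripts under 1000 bases it was 0.20 and -0.38 in shPTPRN3 and 0.56 and -0.37 in shNC. Genes of that length class had a median log2 fold change of 0.08, while those under 1000 bases had -0.18. With trends in length and GC content removed within each library, the members' median was -0.02, AGO2 had a log2 fold change of 0.27 and AGO4 of 0.49, and 0 members were called. The part of the length trend in the value of any single member was not tested.

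**Figure D3:**
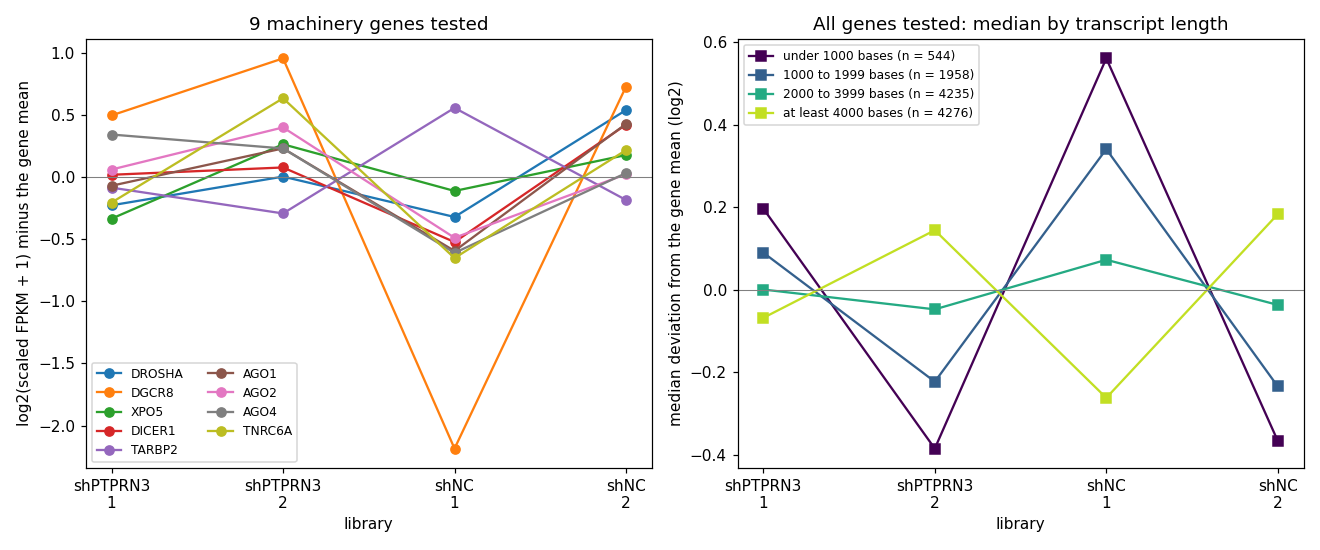
Deviation of log2(scaled FPKM + 1) from each gene's mean in the 4 libraries (x axis), for the 9 members tested (left) and as the median over all genes tested by transcript length (right). Lines join values of 1 gene or class and mark no order; in shNC replicate 1 TARBP2 lies above its mean and the other 8 members below, and the median is high for transcripts under 1000 bases and low for those of at least 4000.

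By the root mean square distance of centred log2 values over the 4 libraries, the tested genes most like AGO2 were HDHD2 (0.0248), SPRED2 (0.0276) and PRKACB (0.0287). HDHD2 had 7.43 and 10.2 scaled FPKM in shPTPRN3 and 4.89 and 7.43 in shNC, and PRKACB had 3.14 and 4.23 in shPTPRN3 and 1.87 and 2.88 in shNC. The likeness rests on 4 libraries and says nothing of shared function.

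The rest of the pathway was described with 8 lists of 142 further genes, of which 113 were tested and 0 were called. Of these 113, 16 had an unadjusted p under 0.05, a share close to the 13.5% of all genes tested, and the median log2 fold change was -0.18. Of 17 tested cofactors of nuclear processing, 14 had values below 0, with a median of -0.35. SRSF3, a splicing factor that also marks primary microRNAs for cutting, had 8.19 and 5.73 scaled FPKM in shPTPRN3 and 36.1 and 21.9 in shNC (log2 fold change -1.89, adjusted p = 0.0876 by limma). SRSF3 was named by a rule that asks for groups that do not overlap, and it did not pass over all genes. Of the 17 cofactors, 1 had groups apart with shPTPRN3 higher and 10 with it lower. The shares over all genes tested were 21.5% and 23.1%.

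XPO5 needs the small GTPase Ran to carry its cargo, and 6 of the 7 genes of the Ran cycle and nuclear transport had log2 fold changes below 0, with a median of -0.78 and 0 called. RCC1, the exchange factor that charges Ran in the nucleus, had 8.28 and 7.63 scaled FPKM in shPTPRN3 and 22.9 and 19.7 in shNC, with a log2 fold change of -1.32 (adjusted p = 0.126 by limma). RANBP1 had 75.5 scaled FPKM in shPTPRN3 replicate 1, was listed at 0 in replicate 2, and had 273 and 111 in shNC (adjusted p = 0.350 by limma).

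The 14 Dicer partners and loading chaperones had a median log2 fold change of -0.17. TSN, a subunit of the nuclease that helps clear the passenger strand, had 15.9 and 15.01 scaled FPKM in shPTPRN3 and 25.5 and 23.9 in shNC (log2 fold change -0.64, adjusted p = 0.426 by limma). DNAJA2, a co-chaperone of Argonaute loading, had 14.6 and 21.3 scaled FPKM in shPTPRN3 and 25.9 and 31.2 in shNC (log2 fold change -0.66, adjusted p = 0.452 by limma), and it had -0.40 without shPTPRN3 replicate 1. Both were named by a rule that asks for groups that do not overlap, and neither passed the test. Of the 14 genes, 2 had groups apart with shPTPRN3 higher and 6 with it lower. Over all genes tested the shares were 21.5% and 23.1%. TSNAX, which encodes the partner of TSN in its nuclease, was among the 2 that were higher. TSNAX had 17.4 and 16.9 scaled FPKM in shPTPRN3 and 12.2 and 15.9 in shNC (log2 fold change 0.28, adjusted p = 0.757 by limma).

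Among 31 tested silencing effectors, 12 had log2 fold changes above 0 and 19 below, with a median of -0.19. TOB1, an adaptor of the deadenylase complex, had 10.6 and 21.4 scaled FPKM in shPTPRN3 and 6.32 and 8.69 in shNC (log2 fold change 0.93, adjusted p = 0.388 by limma), and the fold change was 0.46 without shPTPRN3 replicate 2 and 1.41 without replicate 1. CNOT7, a catalytic subunit of that complex, had 14.8 scaled FPKM in shPTPRN3 replicate 1, was listed at 0 in replicate 2, and had 17.7 and 28.7 in shNC (adjusted p = 0.387 by limma). The 11 genes of small RNA tailing and turnover had a median of -0.05, in which the poly(A) exonuclease gene PARN had 5.50 and 5.76 scaled FPKM in shPTPRN3 and 10.3 and 14.3 in shNC (log2 fold change -0.99, adjusted p = 0.250 by limma). PNPT1, a mitochondrial exonuclease gene, had a log2 fold change of -0.59 (adjusted p = 0.438 by limma).

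**Figure D4:**
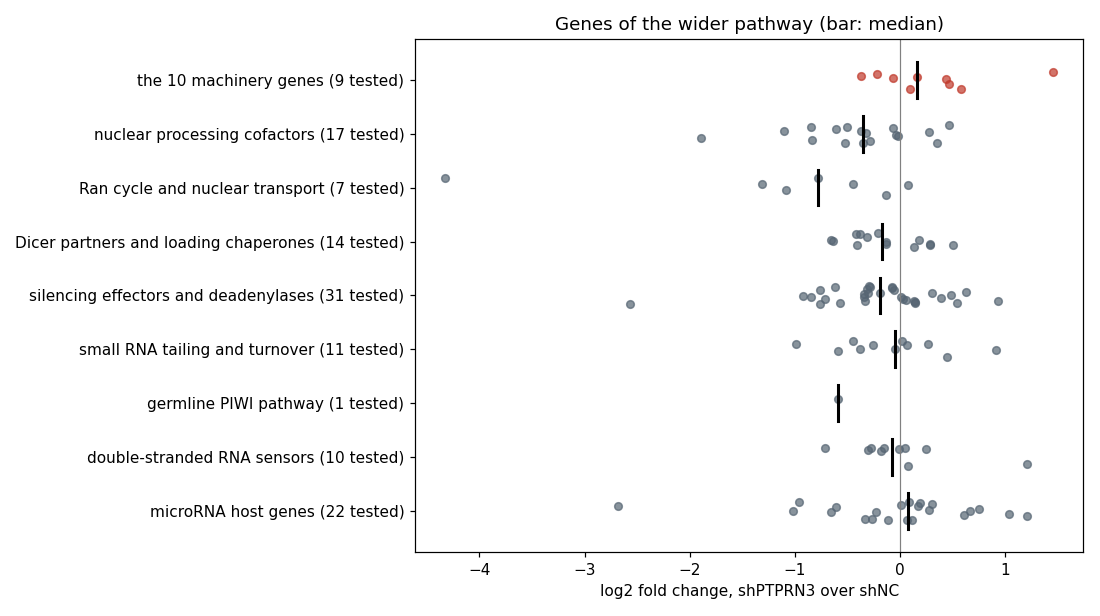
Log2 fold change of shPTPRN3 over shNC (x axis) for each tested gene of the 10-gene machinery (red) and of 8 further lists of the pathway (grey), with a bar at each median. The medians run from -0.78 for the Ran cycle to 0.16 for the machinery genes, and none of the points was called.

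Double-stranded RNA sensors, which can respond to an introduced hairpin, gave 0 called genes among 10 tested, with a median log2 fold change of -0.08. IFIH1, the gene of the sensor MDA5, had 1.38 and 1.61 FPKM in shPTPRN3 and 0.917 and 1.33 FPKM in shNC. DDX58, the gene of RIG-I, had 2.16 and 3.36 FPKM in shPTPRN3 and 1.87 and 6.18 FPKM in shNC. EIF2AK2, the kinase PKR, had 4.13 and 5.71 FPKM in shPTPRN3 and 4.12 and 9.45 FPKM in shNC. As deposited, both shPTPRN3 values of IFIH1 lay above both shNC values. In scaled FPKM its groups overlapped, with 1.32 and 1.71 in shPTPRN3 and 0.884 and 1.37 in shNC. For DDX58 and EIF2AK2 the groups overlapped with and without scaling, and IFNB1 was listed at 0 in every library. The germline PIWI pathway was near the floor, with 9 of its 10 genes under the minimum for testing and PIWIL1 and PIWIL3 listed at 0 in every library.

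Among 22 tested host genes of microRNAs, 13 had log2 fold changes above 0 and 9 below, with a median of 0.08 and 0 called. MIR22HG, the host transcript of miR-22, had 22.7 and 30.6 scaled FPKM in shPTPRN3 and 12.6 and 9.34 in shNC (log2 fold change 1.21, adjusted p = 0.191 by limma). MCM7, a replicative helicase gene whose intron holds the miR-106b cluster, had 11.6 and 5.33 scaled FPKM in shPTPRN3 and 63.0 and 50.4 in shNC (log2 fold change -2.68, adjusted p = 0.0611 by limma). MCM7 was called with robust moderation (adjusted p = 0.0362 by limma), and its adjusted p ran from 0.0216 to 0.298 over the settings without a replicate block. Host transcript levels do not give the level of the mature microRNA.

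The complement of the hairpin's antisense seed, CAGGATG, was looked for on the sense strand of the longest coding transcript of each member in GENCODE 29. The 3' UTR held it in AGO1, AGO3 and AGO4, 3 of the 10 members, against 14.7% of 19043 coding transcripts with a 3' UTR. Among tested genes with a 3' UTR, which leave out AGO3, the share was 16.2%. The 3' UTRs of AGO1, AGO3 and AGO4 are long, at 10921, 16755 and 4285 bases. The median was 2952 bases in tested genes with the motif and 1087 bases in those without it. DICER1 and TNRC6A held it upstream of the 3' UTR. Windows of AGO1, AGO4, DICER1 and TNRC6A are aligned with the hairpin target, with the motif in capitals.
AGO1, first site: gcctaggccaatcCAGGATGg
AGO1, second site: tgataggagtacaCAGGATGa
AGO4: aataagctagaacCAGGATGc
DICER1: aagtgctcaagggCAGGATGg
TNRC6A: ccaaataattcatCAGGATGg
PTPRN, the intended target: ggaagtctgtattCAGGATGg
The member windows shown had 9 to 13 of their 21 bases equal to the target, and PTPRN all 21. AGO1 and AGO4, with the motif in the 3' UTR, had log2 fold changes of 0.16 and 0.58, and AGO3 had -0.19 with no filter on low values. Over the 10443 tested genes with an annotated 3' UTR, the median log2 fold change was 0.02 for the 1691 with the motif in it and -0.01 for those without. A match is a description of sequence and shows neither binding nor loading of that strand.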

How the data were processed

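The deposited values are FPKM with a confidence interval and a status, in a Cufflinks gene table per library of 33646 rows, per the file headers. The submitters' processing notes name FastQC 0.72, STAR 2.6.0b-1, Cufflinks 2.2.1.2 and hg38; annotation and strand setting: not given in the sources used here. Libraries came from a KAPA stranded kit for mRNA, per the labels' protocols. FPKM depend on the transcript length assumed and on the way overlapping genes split fragments. Starts are given from 1.

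Dropping the 651 rows not marked OK in all libraries, FPKM were summed per symbol and divided by a median-ratio factor (1.05 and 0.943 in shPTPRN3, 1.04 and 0.974 in shNC; 9988 genes of 1 FPKM or more throughout). Genes averaging at least 1 FPKM, and PTPRN, entered a two-sided limma 3.58.1 trend fit (R 4.3.3) of log2(scaled FPKM + 1), with Benjamini-Hochberg adjustment over all genes and a threshold of 0.05. With a pseudocount of 1, changes of low genes are understated. The fit had 2 residual and 4.94 prior degrees of freedom. The 95% intervals come from the moderated fit. The procedure was tested on simulated data with independent noise in each library. That test does not cover deviations shared by same-numbered libraries or trends with transcript length. Alternatives changed scaling, pseudocount, filters, row handling, moderation, length and GC trends, the replicate block and the libraries used.

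Depth came from the intervals of single-exon genes of at least 5 FPKM, read as 2 SDs of a Poisson count, which covers counting error only. Transcripts, lengths and 3' UTRs were those of GENCODE 29, same build, taking the longest coding transcript per symbol. Trends in length and GC were removed with mgcv 1.9.3 where known (11013 genes).

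The members and lists were chosen with earlier results of these data known. Named were all members, PTPRN, called genes of each list, the 2 non-overlapping genes of each list with the largest fold change and 5 or more scaled FPKM in the higher group's mean, rows overlapping a member with a mean of at least 1 FPKM in a group, and the 3 genes nearest AGO2. PRKRA, TNRC6B, TNRC6C, TSNAX, the sensors and PIWI genes were named after their values were seen. MIR222HG was not analysed here, and some genes and 1 sequence that the rule names are not reported here.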

Additional observations from a re-analysis of the deposited data

How the results depend on the processing

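Over 16 alternatives for all genes and 1 for overlapping rows, 146 member values were recomputed, of which 136 kept their direction and side of the threshold, 9 changed sign and 1 passed the threshold. Leaving out 1 library moved the log2 fold change of AGO1 between -0.35 and 0.68, of DICER1 between -0.37 and 0.57, of DGCR8 between -0.0023 and 2.91, of TNRC6A between -0.0025 and 0.87 and of DROSHA between -0.65 and 0.21, with shNC replicate 1 left out for the lower value and shNC replicate 2 for the higher. XPO5 ranged from -0.37 without shPTPRN3 replicate 2 to 0.23 without shPTPRN3 replicate 1, and was 0.077 without shNC replicate 2. With length and GC trends removed AGO1 had -0.018 and DICER1 -0.043, and the cause of these changes was not tested. AGO2 and AGO4 kept values above 0 and TARBP2 values below 0 in every alternative that tested them, but without shNC replicate 1 AGO2 had 0.21, AGO4 0.25 and TARBP2 -0.0045, and without shNC replicate 2 AGO2 had 0.72, AGO4 0.90 and TARBP2 -0.75. Leaving out 1 library moved the members' median between -0.0045 (without shNC replicate 1) and 0.68 (without shNC replicate 2), against a spread of 0.40 between replicates, and moved the PTPRN value between -2.44 and -1.99. With the minimum raised to 5 FPKM, 3 members were left and their median was -0.22, opposite in sign to the 0.16 over 9 members, and with length and GC trends removed the median over 9 was -0.018.

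The number of genes called, 48, was 8 with a minimum mean of 5 FPKM and 0 without any filter (limma, where 2163 had an unadjusted p under 0.05). It was 30 after conversion to TPM, 31 without scaling, 23 when the pseudocount was 0.1, 160 with robust eBayes, 26 without a trend, 219 without genes listed at 0, 165 with length and GC trends removed, and 39 to 178 without 1 library. The median over all genes was -0.01, and 0.08 on TPM, where it moved most. PTPRN passed the threshold at -2.22 with robust eBayes or without genes listed at 0 and at -2.24 with trends removed. Of the 142 further pathway genes, 1 was called with robust eBayes, 1 with trends removed (MCM7 each time), 2 without genes listed at 0 (MCM7 and SRSF3), and 0 to 3 without 1 library (RANBP1, CNOT7 and MCM7 without shPTPRN3 replicate 1). The alternatives for these genes were chosen after seeing the data.

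With the replicate number as a block, 2168 genes, 22 further pathway genes and 1 member, DGCR8 (1.46, adjusted p = 0.00669 by limma), were called, and PTPRN passed at -2.22. Same-numbered libraries deviated together (r = 0.519 across genes), but the labels do not say that the number marks a shared culture or day, and DGCR8 is the member listed at 0 in shNC replicate 1.

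With 2 libraries a group, the 95% intervals of the members are wide, and smaller differences were not detectable. Large differences could be missed as well. In the main fit the targeted gene PTPRN, with a log2 fold change of -2.22, did not pass the threshold (adjusted p = 0.0594 by limma).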
